A study of Mus musculus with 12 samples.

Results

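Folh1 and 6 further genes of N-acetylaspartylglutamate (NAAG) metabolism were followed in the retina of mice with optic neuritis. Folh1 was chosen from earlier results of these same libraries, because its level differed between MOG and SHAM and between the needled groups and MOG. Naalad2, Rimkla, Rimklb, Nat8l, Aspa and Grm3 were added for their roles in the same pathway, with results for some of them also known. The 7 genes were found by Ensembl identifier among 54532 identifiers. At least 1 read was counted for 34538 identifiers, and 18299 were tested. All 7 were among the genes tested.

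Retinal RNA was sequenced from wild-type C57BL/6 mice at 13 weeks of age, and the study's methods give the mice as female. The 12 libraries fell into 4 groups of 3. SHAM was the sham control. MOG mice had been immunized with the MOG35-55 peptide in complete Freund's adjuvant with mycobacterium tuberculosis, and had also received pertussis toxin. This gives experimental autoimmune encephalomyelitis (EAE), a mouse model of multiple sclerosis with optic neuritis. The GB20 group had been immunized in the same way and needled at the acupoint GB20. GV16 mice had been immunized and needled at GV16, the control acupoint. Needling began some weeks after immunization and was repeated every few days until the mice were killed. It was done under xylazine and ketamine anaesthesia. The methods give a few mice in each group, an experiment repeated 3 times, and RNA from each group for sequencing. They do not say outright that a library pooled mice, and no label ties a replicate number to a repeat. What SHAM mice received and whether SHAM and MOG mice were anaesthetized is not stated in the methods or labels. If SHAM mice received no adjuvant or toxin, peptide, adjuvant and toxin cannot be told apart in comparisons with SHAM. If MOG mice were not anaesthetized, needling and anaesthesia cannot be told apart in GB20 or GV16 vs. MOG. P-values rest on the spread between the 3 libraries within a group, estimated over all 4 groups together in fits on 12 libraries.

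NAAG is an abundant peptide transmitter of the nervous system, and in the retina it is known from ganglion cells. Nat8l makes N-acetylaspartate (NAA) from aspartate and acetyl-CoA, and the ligases Rimkla and Rimklb join NAA to glutamate to give NAAG. Released NAAG acts on the metabotropic glutamate receptor mGluR3, the product of Grm3, and is cut outside the cell into NAA and glutamate. This cut is made by glutamate carboxypeptidase II, the product of Folh1, and by its close relative glutamate carboxypeptidase III, the product of Naalad2. Aspartoacylase, the product of Aspa, then breaks NAA into acetate and aspartate, mostly in oligodendrocytes.

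In GENCODE vM21 on GRCm38 all 7 are protein-coding genes. Folh1 (ENSMUSG00000001773) lies on the minus strand of chromosome 7 from 86718977 to 86775943, with 3 transcripts, 19 merged exons and 3210 bases of exon that overlap no other gene. Rimkla (ENSMUSG00000048899) lies on the minus strand of chromosome 4 from 119465283 to 119492628. Zmynd12, on the opposite strand, overlaps 8.78% of its exon bases. Nat8l (ENSMUSG00000048142) is on the plus strand of chromosome 5 from 33995984 to 34005916. Rimklb (ENSMUSG00000040649) is on chromosome 6 from 122447296 to 122498761, and Naalad2 (ENSMUSG00000043943) on chromosome 9 from 18321951 to 18402995. The pseudogene Gm19174 overlaps 6.04% of the exon bases of Naalad2. Aspa (ENSMUSG00000020774) is on chromosome 11 from 73304992 to 73329596 and Grm3 (ENSMUSG00000003974) on chromosome 5 from 9485541 to 9725170. These 4 genes are on the minus strand. No source used here gives the strand setting of the counting, so reads in the overlaps of Rimkla and Naalad2 could belong to either gene.

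The bases before the start site are shown for Folh1, the member with the widest range over the groups, and for Rimkla, a member that was lower in MOG vs. SHAM. Both come from RefSeq on GRCm38.p6, which held an entry for 6 of the 7 genes and none for Nat8l, and are written 5' to 3' up to the last base before the annotated exons. The Folh1 window is chr7:86775944-86776114 on the minus strand and the Rimkla window is chr4:119492629-119492848 on the minus strand. They are the first 171 (Folh1) and the first 220 (Rimkla) of the 250 bases before the RefSeq start. The remaining bases, next to that start, lay in GENCODE exons and were left out. Capitals mark the letters CCAAT or GGGCGG on either strand.
Folh1: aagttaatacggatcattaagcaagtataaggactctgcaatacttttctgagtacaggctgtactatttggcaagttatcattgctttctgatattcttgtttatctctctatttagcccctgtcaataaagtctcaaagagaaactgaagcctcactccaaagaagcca
Rimkla: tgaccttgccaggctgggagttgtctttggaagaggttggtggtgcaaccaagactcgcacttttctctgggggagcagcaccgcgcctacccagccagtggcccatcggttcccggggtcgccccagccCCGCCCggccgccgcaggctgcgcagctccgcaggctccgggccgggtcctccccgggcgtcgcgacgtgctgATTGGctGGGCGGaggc
The Folh1 window had a GC content of 36.8%, below the median of 50.9% over 32851 promoter windows of the same length. Those windows were cut at the same distance from their own start, whether or not an exon lay there. They too leave out the bases next to the start. On either strand it did not hold the TATA box letters TATAAA, present in 8.09% of those windows. It also did not hold the CCAAT box CCAAT (in 23.4% of windows) or the GC box GGGCGG (in 19.6%). The E-box CACGTG, in 3.41% of windows, was not there. Rimkla had a GC content of 70.9% beside a median of 51.8%. Its window held 1 CCAAT, found in 31% of windows of that length, and 2 GGGCGG, found in 28.5%. The letters TATAAA (9.95% of windows) and CACGTG (5.01%) were not in it. None of these 4 motifs overlapped another in the Rimkla window. These matches describe letters and were not tested for binding.

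Total counts ranged from 15860278 to 19194280 per library. The 8 rod markers, which define retina, summed to between 53563 and 60004 CPM (counts per 1000000 of the TMM-scaled library size). Markers of retinal ganglion cells, the neurons whose axons form the optic nerve, were lower after immunization. Of 14 such markers, 13 were differentially expressed genes (DEGs, an edgeR quasi-likelihood adjusted p under 0.05) with lower levels in MOG vs. SHAM, beside 0.771% of all genes tested. Their summed CPM ranged over 1026 to 1167 (SHAM), 609 to 722 (MOG), 725 to 737 (GB20) and 580 to 805 (GV16).

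Folh1 RNA was higher and Nat8l RNA lower in all immunized groups than in SHAM, and Rimkla RNA was lower in MOG. In MOG vs. SHAM, 3 of the 7 genes were DEGs, beside 1.34% of the 18299 genes tested. Folh1 was up-regulated, beside 0.568% of all genes, and Nat8l and Rimkla were down-regulated, beside 0.771%. Folh1 was also up-regulated in GV16 vs. MOG, where it was the 1 DEG of the 7, beside 0.164% of all genes. None of the 7 was a DEG by edgeR in GB20 vs. MOG, beside 0.240% of all genes. Because these comparisons were known when the genes were chosen, the counts describe the choice and no p-value is given for them. The DEGs of GB20 vs. SHAM were Folh1 and Nat8l (2 of 7, beside 0.344% of all genes), and those of GV16 vs. SHAM were the same 2 genes (beside 0.656%). Those 2 comparisons share the SHAM libraries with MOG vs. SHAM.

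In the 3 SHAM libraries Folh1 was at 14.0, 10.8 and 14.9 CPM. The MOG libraries had 22.7, 21.0 and 17.1 CPM. In GB20 the levels were 25.6, 27.7 and 30.2 CPM, and in GV16 they were 28.6, 40.4 and 38.8 CPM. SHAM, MOG and GB20 did not overlap, each lying wholly above the one before. GV16 lay above MOG, and its first library fell within the range of GB20. Between 183 and 629 reads per library stood behind these values.

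**Figure D1:**
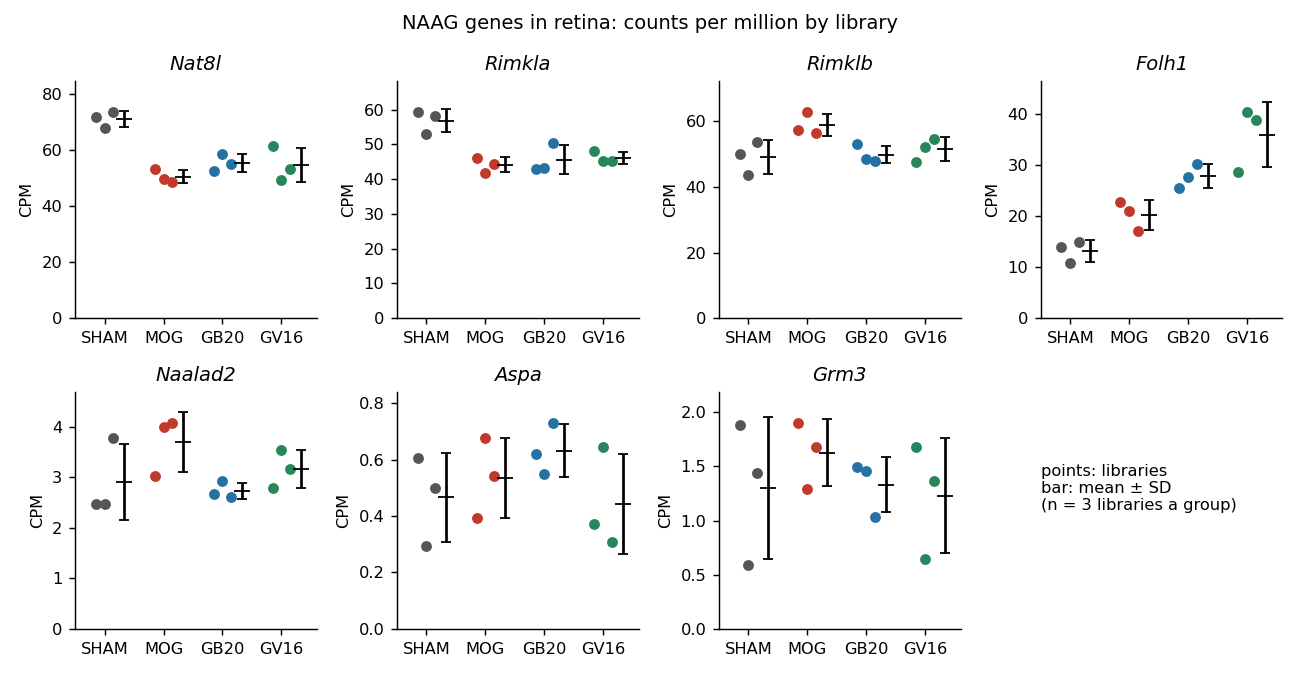
Level in CPM (vertical axis from 0) of each of the 7 genes in the 12 libraries, by group (horizontal axis). Points are libraries, and bars give the mean and SD of 3 libraries; for Folh1 the means were 13.2, 20.3, 27.8 and 36.0 CPM in SHAM, MOG, GB20 and GV16, whereas Aspa and Grm3 stayed near or under 2 CPM.

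Mean Folh1 CPM was 13.2 ± 2.18 for SHAM, 20.3 ± 2.91 for MOG, 27.8 ± 2.33 for GB20 and 36.0 ± 6.41 for GV16 (SD, n = 3 each). The log2 fold change in MOG vs. SHAM was 0.62 ± 0.15 (SE), a fold of 1.53. GB20 vs. MOG had a log2 fold change of 0.46 ± 0.14 (1.37-fold) and GV16 vs. MOG one of 0.83 ± 0.14 (1.77-fold). Both needled groups differed from SHAM more widely, at 1.07 ± 0.14 (2.10-fold) in GB20 and 1.44 ± 0.14 (2.72-fold) in GV16. The MOG libraries enter both the rise from SHAM and the differences of the needled groups, so these values are not independent of each other.

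Whether Folh1 was called depended on the fit in all comparisons with MOG. With the replicate number as a block, Folh1 was no longer a DEG in MOG vs. SHAM (log2 fold change 0.62). The call was also lost without SHAM 1 (0.66), SHAM 2 (0.49), MOG 1 (0.52), MOG 2 (0.59), GB20 1 (0.61) or GB20 2 (0.61). In GV16 vs. MOG the call was lost without MOG 2 (0.85), MOG 3 (0.71), GV16 2 (0.73) or GV16 3 (0.77). Folh1 remained a DEG in all 12 such fits of GB20 vs. SHAM (0.94 to 1.17) and of GV16 vs. SHAM (1.31 to 1.58). In GB20 vs. MOG Folh1 was a DEG on the 6 libraries of the comparison by DESeq2 (0.46) and edgeR (0.45), and by edgeR on all 12 with no filter on low counts (0.46). It was not one by DESeq2 or filtered edgeR on all 12.

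GB20 vs. GV16 compares the acupoint with its control site. Folh1 was lower in GB20 than in GV16 by a log2 difference of -0.37 ± 0.13 (SE), with a 95% interval of -0.65 to -0.09. With an edgeR adjusted p of 0.9999 over all genes it did not pass, and 2 of 3 GV16 libraries were above all GB20 libraries. None of the 7 genes was a DEG in this comparison by edgeR, beside 0.00546% of all genes. By an unadjusted p under 0.05 there was 1 of the 7, namely Folh1, beside 2.93% of all genes. DESeq2 called 0 on 12 libraries, beside 0.0145%, and 0 on 6 libraries, beside 0.0124%. The 95% intervals of the other genes included 0. They were -0.15 to 0.19 for Nat8l, -0.18 to 0.15 for Rimkla and -0.22 to 0.13 for Rimklb. Wider intervals were found for the genes with few reads, at -0.66 to 0.24 for Naalad2, -0.66 to 0.90 for Grm3 and -0.42 to 1.44 for Aspa. This comparison uses the same libraries as those that chose the genes.

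Naalad2, the second NAAG peptidase, was at 2.48, 2.47 and 3.77 CPM in SHAM and at 3.02, 3.99 and 4.08 CPM in MOG. It was at 2.68, 2.92 and 2.62 CPM in GB20 and at 2.79, 3.54 and 3.16 CPM in GV16. SHAM and MOG overlapped, and all GB20 libraries were below all MOG libraries. Its log2 fold change was 0.34 ± 0.21 (SE) in MOG vs. SHAM, -0.43 ± 0.21 in GB20 vs. MOG and -0.22 ± 0.21 in GV16 vs. MOG, and it was a DEG in none of them. The fitted log2 fold changes of the 2 peptidase genes were of opposite sign in both needled groups vs. MOG. For Naalad2 the 95% intervals included 0, at -0.87 to 0.008 in GB20 and -0.66 to 0.21 in GV16. Both comparisons share the MOG libraries.

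Nat8l, the NAA synthase gene, was at 72.0, 68.0 and 73.7 CPM in SHAM. It was at 53.2, 49.6 and 48.8 CPM in MOG, so that every MOG library was below every SHAM library. Needled mice had intermediate values of 52.6, 58.7 and 54.9 CPM in GB20 and 61.5, 49.5 and 53.1 CPM in GV16, which overlapped MOG. In MOG vs. SHAM Nat8l fell by 29.1%, a log2 fold change of -0.50 ± 0.08 (SE), and this call held without any single library (-0.54 to -0.47). In bulk RNA fewer cells of a type and less RNA per cell cannot be told apart, and the ganglion cell markers were lower in the same libraries. Their part in the lower Nat8l was not tested.

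Against MOG, Nat8l had log2 fold changes of 0.13 ± 0.08 (SE) in GB20 and 0.12 ± 0.08 in GV16, and was no DEG. Against SHAM it was lower by -0.36 ± 0.08 in GB20 and -0.38 ± 0.08 in GV16. The call in GB20 vs. SHAM was lost without SHAM 1 (-0.36), SHAM 3 (-0.34), MOG 2 (-0.36), MOG 3 (-0.36), GB20 1 (-0.33), GB20 2 (-0.41), GB20 3 (-0.36) or GV16 3 (-0.36). That in GV16 vs. SHAM was lost without SHAM 1 (-0.37), GV16 2 (-0.32) or GV16 3 (-0.36). The values themselves moved little.

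Rimkla and Rimklb, the NAAG synthetase genes, differed in direction. Rimkla was at 59.3, 53.1 and 58.1 CPM in SHAM and at 46.1, 41.8 and 44.4 CPM in MOG, with no overlap. In GB20 it was at 43.1, 43.4 and 50.5 CPM and in GV16 at 48.1, 45.3 and 45.1 CPM, below every SHAM library. It fell by 22.4% in MOG vs. SHAM (log2 fold change -0.37 ± 0.08, SE), and the call was lost without SHAM 1 (-0.33), MOG 2 (-0.32) or MOG 3 (-0.37). GB20 vs. MOG gave 0.05 ± 0.08 and GV16 vs. MOG 0.06 ± 0.08, with overlapping libraries. In GB20 vs. SHAM and GV16 vs. SHAM the values were -0.32 ± 0.08 and -0.30 ± 0.08, neither a DEG by edgeR. Without SHAM 2 (-0.36) Rimkla became a DEG in GB20 vs. SHAM, as it also did by DESeq2 on 12 libraries (-0.31).

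Rimklb was at 50.1, 43.5 and 53.8 CPM in SHAM, and its 3 MOG libraries were higher, at 57.3, 62.8 and 56.4 CPM. In GB20 it was at 53.0, 48.6 and 48.0 CPM and in GV16 at 47.5, 52.3 and 54.6 CPM, all below MOG and overlapping SHAM. The log2 fold changes were 0.26 ± 0.08 (SE) in MOG vs. SHAM, -0.24 ± 0.08 in GB20 vs. MOG and -0.19 ± 0.08 in GV16 vs. MOG. None of these was a DEG. Rimklb thus had the order high in MOG and lower in the other 3 groups, a pattern that no other of the 7 genes showed without overlap.

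Grm3, the receptor gene, had 10 to 34 reads per library. SHAM libraries had 1.88, 0.588 and 1.44 CPM, and MOG libraries 1.90, 1.29 and 1.68 CPM. GB20 libraries had 1.49, 1.46 and 1.04 CPM, and GV16 libraries 1.68, 0.643 and 1.36 CPM. Aspa, the NAA breakdown gene, had 5 to 12 reads per library and 0.294 to 0.731 CPM. All 4 groups overlapped for both. The standard errors of their log2 fold changes were 0.36 to 0.38 for Grm3 and 0.43 to 0.47 for Aspa, so that a change of the size seen in Folh1 in MOG vs. SHAM was not detectable at this depth. Aspa and Grm3 were DEGs in no comparison.

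**Figure D2:**
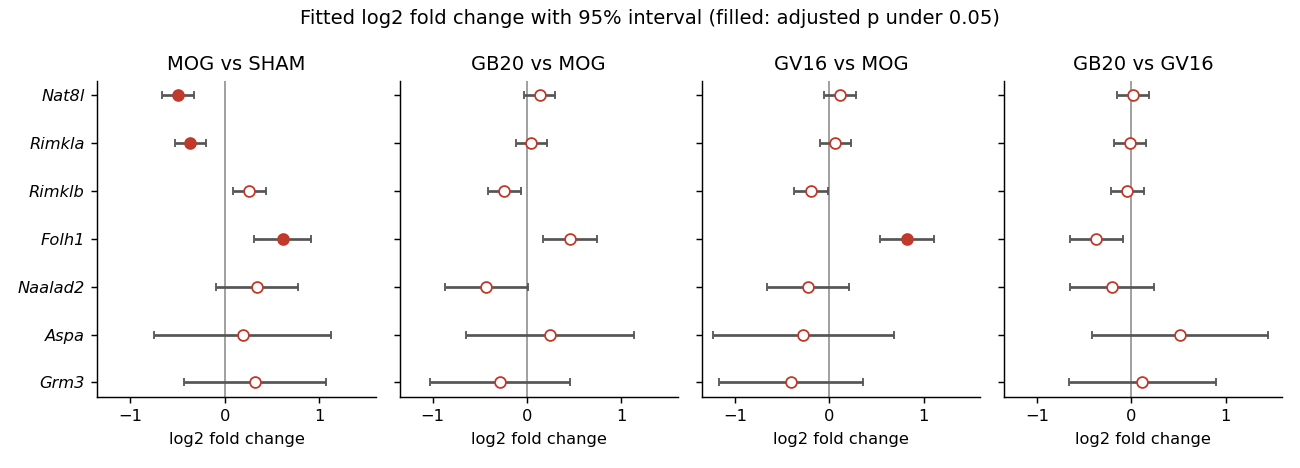
Log2 fold change (horizontal axis) of the 7 genes in 4 comparisons from the edgeR fit over 12 libraries, with 95% intervals. Folh1 lay at 0.62, 0.46 and 0.83 in the comparisons of MOG with SHAM, GB20 with MOG and GV16 with MOG, and the intervals of Aspa and Grm3 included 0 in all 4.

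Counted over the 7 genes, the libraries of the groups did not overlap for 4 in MOG vs. SHAM, beside 16.2% of all genes tested. The 4 were Folh1 and Rimklb, higher in MOG, and Nat8l and Rimkla, lower. In GB20 vs. MOG there were 3 (Folh1 higher, Rimklb and Naalad2 lower), beside 15.7%, and in GV16 vs. MOG 2 (Folh1 higher, Rimklb lower), beside 12.6%. GB20 vs. GV16 had 0, beside 8.34%. GB20 vs. SHAM and GV16 vs. SHAM had 3 each, beside 12.7% and 14.5%. The median log2 fold change of the 7 was 0.26 in MOG vs. SHAM, 0.05 in GB20 vs. MOG and -0.19 in GV16 vs. MOG, beside -0.0023, 0.00084 and 0.0024 over all genes tested. Of the 7 genes, 2 had an unadjusted p under 0.05 in GB20 vs. MOG by edgeR, beside 8.00% of all genes. DESeq2 called 0 of the 7 on 12 libraries, beside 0.346%, and 1 (Folh1) on 6 libraries, beside 0.970%.

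Levels of different genes were compared by FPKM, the deposited value per length and depth. In SHAM the order was Rimkla at 13.5, Nat8l at 10.6, Rimklb at 8.65 and Folh1 at 4.08 FPKM. Naalad2 (0.607), Grm3 (0.423) and Aspa (0.0776 FPKM) followed far below. Of these neighbours in SHAM, only Naalad2 and Grm3 overlapped. Folh1 was the fourth of the 7 in SHAM and in MOG (6.26 FPKM). In GB20 (8.61 FPKM) it was the third, overlapping Rimklb at 8.80 above and Nat8l at 8.25 below. In GV16 its mean was 11.1 FPKM, within the 10.8 to 11.5 FPKM of the Rimkla libraries. The order of Folh1 and Rimkla in GV16 was the opposite on the mean of log2(FPKM + 1).

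**Figure D3:**
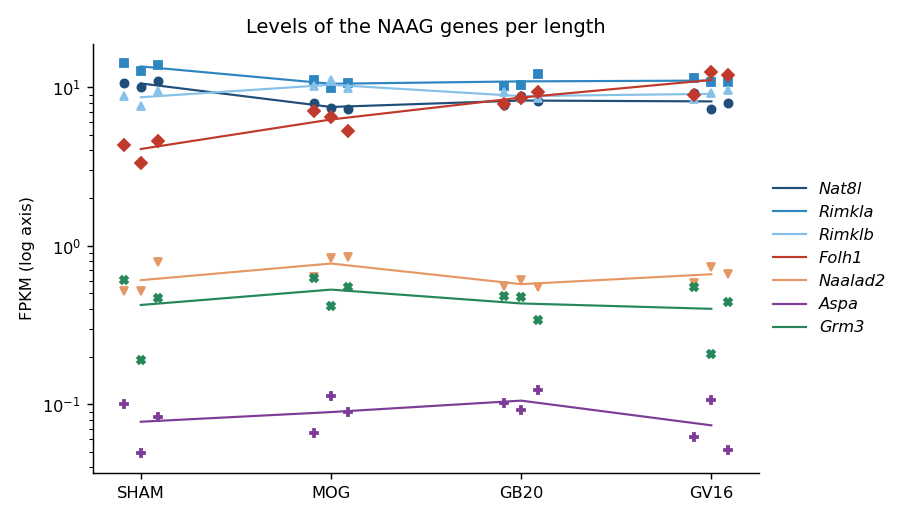
FPKM of the 7 genes (vertical axis, log scale) by group, with points for the 12 libraries and lines joining group means. Folh1 went from 4.08 FPKM in SHAM to 11.1 in GV16, within the range of the Rimkla libraries (10.8 to 11.5), while Naalad2, Grm3 and Aspa stayed under 1 FPKM in every library.

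The balance of Folh1 to the other genes was described as a ratio of FPKM within each library. Folh1 over the sum of the synthetase genes Rimkla and Rimklb was 0.188, 0.163 and 0.198 in SHAM and 0.333, 0.308 and 0.257 in MOG. It was 0.402, 0.453 and 0.455 in GB20 and 0.445, 0.624 and 0.588 in GV16. SHAM, MOG and GB20 did not overlap, and GV16 overlapped GB20. The synthetase sum itself was 22.2 ± 1.62 FPKM in SHAM, 20.9 ± 0.353 in MOG, 19.7 ± 0.845 in GB20 and 20.1 ± 0.281 in GV16 (SD, n = 3). Within that sum, Rimkla made up 61.1 ± 1.51% in SHAM and 50.4 ± 2.58% in MOG, with 55.3 ± 3.21% in GB20 and 54.8 ± 2.65% in GV16.

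Set against the other peptidase, Folh1 over Naalad2 was 6.88 ± 1.30 in SHAM, 8.36 ± 2.52 in MOG, 15.1 ± 1.72 in GB20 and 16.8 ± 1.52 in GV16 (SD, n = 3). SHAM (5.85 to 8.34) and MOG (6.18 to 11.1) overlapped. GB20 (14.1 to 17.1) and GV16 (15.2 to 18.2) overlapped each other and lay above both. Folh1 over Nat8l was 0.385 ± 0.0489 in SHAM, 0.832 ± 0.0910 in MOG, 1.04 ± 0.0863 in GB20 and 1.39 ± 0.380 in GV16. All these ratios contain Folh1, whose values chose the genes, and so carry no test.

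**Figure D4:**
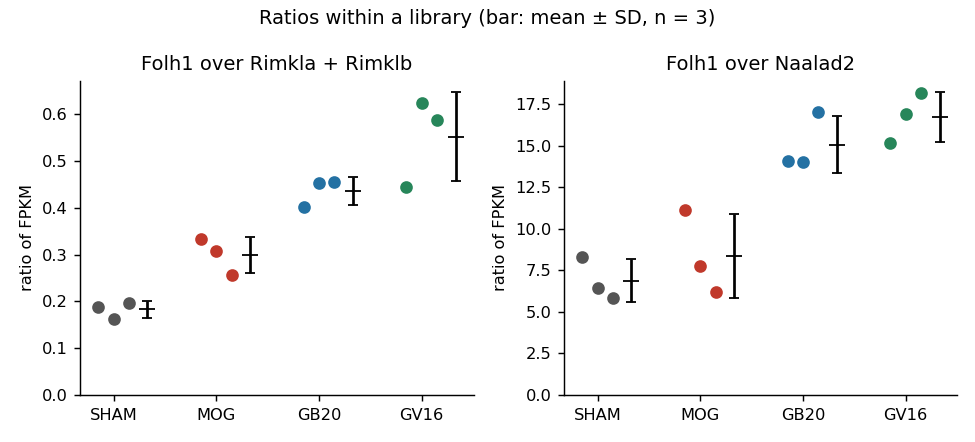
FPKM ratios within a library by group, with points for libraries and bars for the mean and SD of 3. Folh1 over the sum of Rimkla and Rimklb averaged 0.183, 0.299, 0.437 and 0.553 in SHAM, MOG, GB20 and GV16.

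Around the 7 genes, 67 further genes were listed by role in 6 lists, and 64 of them were tested. These lists too were chosen with earlier results of these data known, so their adjusted p-values are a description. Acss1, Acy3 and Folr2 had too few reads. In MOG vs. SHAM 2 of the 64 were DEGs, 1 in each direction, beside 1.34% of all genes. Tfrc, the transferrin receptor and a structural relative of Folh1 in the list of its peptidase kin, rose from 186 ± 12.1 to 226 ± 5.54 CPM (SD, n = 3). Its log2 fold change was 0.28 ± 0.07 (SE), with an edgeR adjusted p of 0.0337. Tfrc lost the call without SHAM 1 (0.29), SHAM 2 (0.24), MOG 1 (0.28), MOG 2 (0.27), MOG 3 (0.31) or GB20 3 (0.28). Slc17a6, the vesicular glutamate transporter VGLUT2 and also one of the ganglion cell markers above, fell from 67.4 ± 6.59 to 44.9 ± 5.17 CPM. Its log2 fold change was -0.58 ± 0.12, with an edgeR adjusted p of 0.0252. The call was lost without SHAM 1 (-0.50), SHAM 2 (-0.61), MOG 2 (-0.54) or MOG 3 (-0.52).

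In the needled groups vs. MOG, and in GB20 vs. GV16, edgeR called 0 of the 64. An unadjusted p under 0.05 was found for 11 in GB20 vs. MOG (beside 8.00% of all genes), 3 in GV16 vs. MOG (beside 5.30%) and 3 in GB20 vs. GV16 (beside 2.93%). DESeq2 on 12 libraries called 0 in each, beside 0.346%, 0.261% and 0.0145% of the genes to which it gave an adjusted p. On 6 libraries it called Tfrc in GB20 vs. MOG (beside 0.970%), Glul in GV16 vs. MOG (beside 0.385%) and 0 in GB20 vs. GV16 (beside 0.0124%). Glul, the glutamine synthetase of Müller cells, was named here after its values were seen. In GB20 vs. SHAM 0 of the 64 were DEGs by edgeR, beside 0.344% of all genes. Slc17a6 was there at -0.56 ± 0.12 (edgeR adjusted p = 0.0658), close to its value in GV16 vs. SHAM. In GV16 vs. SHAM 1 of the 64 was a DEG, Slc17a6 (-0.59 ± 0.12, edgeR adjusted p = 0.0401), beside 0.656% of all genes. That call was lost without any 1 of SHAM 1, SHAM 2, MOG 2, GB20 1, GB20 2, GB20 3, GV16 2 or GV16 3 (-0.62 to -0.43).

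By list, 0 of the 8 tested genes for NAA and NAAG supply, transport and turnover were DEGs in MOG vs. SHAM, and their median log2 fold change was 0.0040. Got1, the aspartate aminotransferase with the highest mean FPKM of the list, was at 284 ± 7.71 CPM in SHAM vs. 255 ± 15.7 CPM in MOG (edgeR adjusted p = 0.329). Among the 4 peptidase kin, Tfrc alone was a DEG, and the median was 0.26. The 7 other metabotropic glutamate receptors held 0 DEGs and had a median of -0.010. Grm6, the receptor of ON bipolar cells, was at 169 ± 20.0 CPM in SHAM vs. 153 ± 5.52 CPM in MOG (edgeR adjusted p = 0.486).

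For glutamate uptake, recycling and vesicle loading, Slc17a6 was the 1 DEG of 15 in MOG vs. SHAM, with a list median of -0.010. The 11 NMDA and AMPA receptor subunits held 0 DEGs, with a median of -0.0045. Gria2, an AMPA receptor subunit, was at 235 ± 35.8 CPM in SHAM vs. 275 ± 22.8 CPM in MOG (edgeR adjusted p = 0.335). Since Folh1 also trims glutamates from folates, 19 genes of folate uptake and metabolism were tested. In MOG vs. SHAM 0 of them were DEGs, with a median of 0.043. Shmt2, the mitochondrial serine hydroxymethyltransferase, was at 49.6 ± 8.20 CPM in SHAM vs. 50.4 ± 5.25 CPM in MOG (edgeR adjusted p = 0.951). Over all 6 lists, an unadjusted p under 0.05 was found for 10 of the 64 genes in MOG vs. SHAM, beside 13.0% of all genes. DESeq2 called 3 of the 64 on 12 libraries, beside 1.78%, and 2 on 6 libraries, beside 1.44%. The list medians ran from -0.24 (peptidase kin) to 0.014 (NAA and NAAG supply) in GB20 vs. MOG, and in GV16 vs. MOG from -0.14 (peptidase kin) to 0.018 (glutamate uptake).

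Of the 18299 genes tested, 5 had the highest Pearson correlation with Folh1 over the 12 libraries. All points share the 4 groups, so the correlations are a description. Sav1 (chromosome 12, 69965012 to 69987002), an adaptor of the Hippo kinase pathway, had r = 0.955 and a Spearman rho of 0.944. Its mean level was 22.3 CPM in SHAM, 25.6 in MOG, 26.5 in GB20 and 29.0 in GV16. Nin (chromosome 12, 70011435 to 70113717), which codes for the centrosome protein ninein, had r = 0.926 and rho = 0.916. The level of Nin was 77.7, 90.1, 94.8 and 106 CPM in the same order.

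Etnppl (chromosome 3, 130617448 to 130637521), the ethanolamine-phosphate phospho-lyase, had r = 0.927 and rho = 0.951, and levels of 19.3, 27.0, 35.3 and 39.2 CPM. Fam107a (chromosome 14, 8296274 to 8318023), an actin-associated protein gene, had r = 0.926 and rho = 0.888, with 10.6, 13.8, 20.4 and 23.6 CPM. Ahcyl1 (chromosome 3, 107663118 to 107696560), whose product binds the IP3 receptor, had r = 0.924 and rho = 0.951, with 499, 522, 551 and 596 CPM. Leaving out each library in turn kept 2 to 5 of these 5 genes. All 5 had the group order of Folh1, which follows largely from how they were picked. None of the other 6 NAAG genes, which were not picked in that way, followed it. Their r to Folh1 was -0.62 for Nat8l, -0.59 for Rimkla, 0.16 for Rimklb, 0.097 for Naalad2, 0.16 for Aspa and -0.033 for Grm3.

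**Figure D5:**
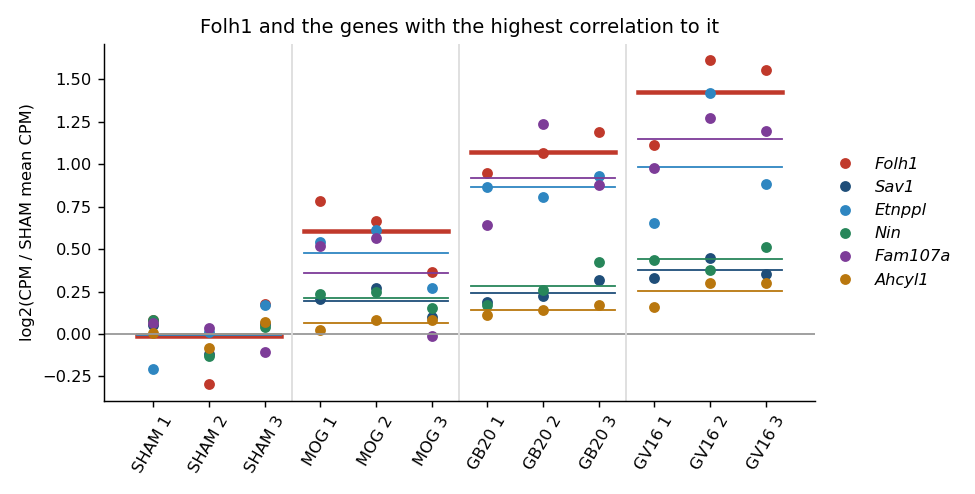
Log2 of the level in CPM over the mean of the SHAM libraries (vertical axis) for Folh1 and the 5 genes with the highest Pearson correlation to it, in the 12 libraries (horizontal axis). Points are libraries and short lines are group means; all 6 genes had their highest group mean in GV16, and r was 0.924 to 0.955.

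Markers of the other cells that could carry these genes were set beside them. The marker lists were chosen with earlier results of these data known, so their adjusted p-values are a description. Glutamate carboxypeptidase II is known as a glial enzyme, and Müller cells are the main glia of the retina. The 12 Müller cell markers summed to 4032 to 4591 CPM, with all 4 groups overlapping. Glul is among the 12 and weighs heavily in this sum, with means of 2081 CPM in SHAM and 1743 CPM in MOG. Single Müller markers moved in different directions. Aqp4, a water channel, rose in MOG vs. SHAM (105 to 145 CPM, edgeR adjusted p = 0.000812) and fell in GB20 vs. MOG (to 113 CPM, edgeR adjusted p = 0.0293) and GV16 vs. MOG (to 114 CPM, edgeR adjusted p = 0.0472). Car14, a carbonic anhydrase, rose from 45.9 CPM in MOG to 64.7 CPM in GB20 (edgeR adjusted p = 0.0158) and 64.9 CPM in GV16 (edgeR adjusted p = 0.0202). The Aqp4 call in MOG vs. SHAM held without any single library. In the needled groups vs. MOG the Aqp4 calls were lost in 6 and 10 of 12 such fits, and the Car14 calls in 4 and 4.

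Astrocyte markers (4 of 4 tested) summed to 38.3 to 45.2 CPM in SHAM, 71.0 to 76.1 in MOG, 59.0 to 83.5 in GB20 and 54.3 to 67.5 in GV16. Gfap, the glial filament gene, was the DEG among them in MOG vs. SHAM, with a log2 fold change of 1.25 ± 0.17 (SE, edgeR adjusted p = 0.00287). Mean Gfap went from 23.1 to 54.9 CPM, and the mean sum of all 4 markers from 42.2 to 74.0 CPM. The higher sum in MOG was thus that of Gfap. The 12 microglial markers summed to 50.4 to 61.3 CPM in SHAM. Wholly above it lay MOG (78.2 to 85.4 CPM), GB20 (71.6 to 93.4 CPM) and GV16 (78.5 to 88.4 CPM). In MOG vs. SHAM 3 of the 12 were DEGs with higher levels, beside 0.568% of all genes, and all 12 had a log2 fold change above 0 in each comparison with SHAM. Pigment epithelium and choroid markers summed to 27.3 to 36.3 CPM in SHAM, 45.4 to 57.7 in MOG, 46.3 to 53.8 in GB20 and 30.9 to 70.5 in GV16, with 0 of 10 tested called in MOG vs. SHAM by edgeR. Of the 13 markers of oligodendrocytes, which express Aspa in the brain, 6 were tested. All 13 summed to 67.4 to 71.6 CPM in SHAM. The MOG libraries lay wholly above it, at 75.7 (MOG 1), 106.9 (MOG 2) and 74.1 CPM (MOG 3), so the upper end came from MOG 2 alone. The needled groups had 62.1 to 68.9 CPM (GB20) and 62.9 to 70.8 CPM (GV16). These sums include Cnp, and a sum without Cnp was not computed, so they do not show a rise shared by the markers. Cnp, a myelin enzyme gene, was the 1 DEG of the 6 in each of 3 comparisons. It rose from 17.7 to 25.1 CPM in MOG vs. SHAM (edgeR adjusted p = 0.00776) and fell to 16.8 CPM in GB20 vs. MOG (edgeR adjusted p = 0.00767) and 15.5 CPM in GV16 vs. MOG (edgeR adjusted p = 0.00218). Its call was lost without MOG 3 in MOG vs. SHAM (0.50) and without MOG 3 (-0.57) or GB20 1 (-0.53) in GB20 vs. MOG. No list had a marker at 0 in every library. The part of these cells in the Folh1, Nat8l and Rimkla values was not tested.

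Fold changes moved with gene length in several comparisons. The Spearman correlation of log2 fold change with exon length over 16035 genes was 0.202 in MOG vs. SHAM, -0.243 in GB20 vs. MOG, -0.0862 in GV16 vs. MOG and -0.234 in GB20 vs. GV16. Against SHAM it was -0.0171 for GB20 and 0.153 for GV16. With this trend removed, Folh1 was at 0.65 in MOG vs. SHAM and did not pass.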

How the data were processed

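Group and replicate number of the 12 retinal libraries came from the sample titles. The authors enriched polyadenylated RNA, aligned paired reads with HISAT2 (2.0.5 in the submitters' processing notes, which name mm10) and counted them per gene with FeatureCounts. The authors deposited whole-number read counts without normalization. The deposited FPKM values had been computed by the authors from gene length and count. No source used here gives the annotation release or strand setting. Symbols and coordinates came from GENCODE vM21 on GRCm38 (54409 of 54532 identifiers).

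The NAAG genes and all lists were chosen with earlier results of these data known. Differential expression used edgeR 4.0.16 under R 4.3.3. Genes passing its expression filter were scaled by TMM, and 12 libraries were fitted with 1 mean per group (robust quasi-likelihood, 8 residual degrees of freedom). DEGs had a Benjamini-Hochberg adjusted p under 0.05. Correlations used log2 CPM with a prior count of 1. The scripts were tested on simulated data. Alternatives were DESeq2 1.42.0, fits on the 6 libraries of a comparison, other scaling, no filter, a replicate block, a length correction (lowess span 0.3 over genes above 1 CPM), and leaving out each library. Genes named were the 7, every DEG of the 6 pathway lists (otherwise the list's highest mean FPKM), the 5 most correlated with Folh1, and at most 4 DEGs of the marker lists in a comparison. Total counts of 15860278 to 19194280 limit precision for Aspa and Grm3. Figures used Python 3.11.15 and matplotlib 3.10.9. The authors' own comparisons were not used.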

Additional observations from a re-analysis of the deposited data

How the results depend on the processing

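The Folh1 values kept their direction under all alternatives. In MOG vs. SHAM Folh1 missed the threshold with a replicate block (0.62), a length correction (0.65) or both (0.66). In GV16 vs. MOG it missed it with both (0.81), which left 0 of the 7 genes called there. It passed in GB20 vs. MOG with no filter on low counts (0.46), by DESeq2 on 6 libraries (0.46) and by edgeR on 6 libraries (0.45), giving 1 gene called instead of 0. The cause was not tested. By edgeR on 6 libraries, 1 gene of the 7 was called in GB20 vs. SHAM and 1 in GV16 vs. SHAM, and with DESeq2 size factors 1 in GB20 vs. SHAM. Of the other pathway genes, edgeR on 6 libraries called 1 in MOG vs. SHAM, and DESeq2 on 6 libraries called 1 in GB20 vs. MOG and 1 in GV16 vs. MOG. For the edgeR alternatives no share of all genes called is at hand, so these counts are not a result about the listed genes. Folh1 had rank 2 in GV16 with log2(FPKM + 1) and rank 2 with log2(FPKM + 0.1). By Spearman's rho, 2 of the 5 genes most like Folh1 were kept.

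Leaving out each library in turn, the genes called of the 7 numbered 1 to 3 in MOG vs. SHAM, 0 to 1 in GV16 vs. MOG, 1 to 3 in GB20 vs. SHAM and 1 to 2 in GV16 vs. SHAM. The other pathway genes called in MOG vs. SHAM numbered 0 to 2. No share of all genes called is at hand for these fits either. Folh1 ranged from 0.49 to 0.73 in MOG vs. SHAM, 0.34 to 0.55 in GB20 vs. MOG, 0.71 to 0.97 in GV16 vs. MOG and -0.51 to -0.28 in GB20 vs. GV16. Of the 5 genes most like Folh1, 2 to 5 were kept. The sign changed in 25 of these fits, each for a gene that was no DEG in that comparison. In GB20 vs. GV16 the ranges were -0.047 to 0.11 for Nat8l, -0.097 to 0.024 for Rimkla, -0.098 to 6.0e-05 for Rimklb and -0.18 to 0.41 for Grm3. For Rimkla GB20 vs. MOG had -0.034 to 0.089. In GB20 vs. SHAM they were -0.057 to 0.091 for Rimklb, -0.20 to 0.14 for Naalad2 and -0.31 to 0.38 for Grm3. In GV16 vs. SHAM they were -0.012 to 0.14 for Rimklb, -0.44 to 0.14 for Aspa and -0.42 to 0.26 for Grm3. In MOG vs. SHAM they were -0.041 to 0.41 for Aspa and -0.015 to 0.67 for Grm3.

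Replicate numbers are shared over groups and the study's methods describe 3 repeats of the experiment, but no label ties a number to a repeat. Over all 18 same-number pairs the correlation of deviations from the group means ran from -0.095 to 0.28, with 3 pairs over 0.1. The 36 different-number pairs ran from -0.19 to 0.11. For 9 of 12 libraries the mean correlation was highest with their own number. Whether the numbers mark the repeats was not tested. The block called Rimkla in GB20 vs. SHAM (-0.32) and GV16 vs. SHAM (-0.30). Depth limits Aspa and Grm3.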
